A study of Mus musculus with 15 samples.

Results

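The distal end of mouse chromosome 7 carried H3K27me3 and FLAG calls over a stretch in which the EZH2 list held a single interval, at its very start. The segment comprised every interval that began past position 144500000 of chromosome 7 (build mm9) in 3 peak lists, which gave 15 H3K27me3 intervals of 1126, 5 FLAG intervals of 438 and 1 EZH2 interval of 902, or 21 of 2466 in all. It was chosen by the deposited calls themselves, at the place where EZH2 intervals stopped and FLAG and H3K27me3 intervals went on. Within it, 9 genes were followed: Nkx6-2, the imprinted genes H19, Igf2, Ascl2, Kcnq1ot1 and Cdkn1c, and the fibroblast growth factor genes Fgf3, Fgf4 and Fgf15. H3K27me3 and FLAG without an EZH2 call were found at Nkx6-2, Igf2, Fgf3 and Fgf4. Ascl2, Cdkn1c and Fgf15 had H3K27me3 with neither other call, and H19 and Kcnq1ot1 had no interval of any list.

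The lists came from chromatin immunoprecipitation with sequencing of mouse embryonic fibroblasts titled as EED-floxed, and so carrying floxed alleles of a core PRC2 subunit but not the knockout, that stably expressed wild-type EZHIP from a lentivirus. The sources used here do not give the promoter that drives EZHIP, and no treatment is named for these cells. One antibody each was used against EZH2, FLAG and H3K27me3, with 1 library per antibody, and FLAG was read as the tag on EZHIP, which is among the targets listed for the study. Of the 15 libraries deposited for 5 conditions, 12 were not analysed here, so the values below describe 1 condition without replicates and no test between conditions was made. The lists give start and end positions only, so depth and enrichment are unknown, and an interval missing from a list shows no call and not an absence of the protein. The H3K27me3 list is labelled residual, so its intervals are not taken as the full H3K27me3 pattern of these fibroblasts. Marker genes of fibroblasts could not be checked in such lists.

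PRC2 is the complex that methylates lysine 27 of histone H3, with EZH2 as its catalytic subunit, and H3K27me3 is the mark of genes kept silent by Polycomb. EZHIP is an inhibitor of PRC2 that mimics the histone tail bearing a methionine in place of that lysine. Polycomb marks CpG-rich promoters of developmental regulators, such as homeobox and growth factor genes, in cells that do not use them. Distal chromosome 7 also holds neighbouring imprinted domains, in which genes are expressed from only the maternal or only the paternal chromosome, and PRC2 takes part in silencing some of them. The lists do not separate the parental chromosomes.

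Because Polycomb is recruited to CpG-rich DNA, the promoters of the genes with and without calls are shown here for their CpG content. The promoter entries used, from RefSeq of build GRCm38.p6, span 250 bases before to 50 bases after a gene start. This set held 6 of the 9 genes. H19, Cdkn1c and Fgf15 had no entry in it and are named only, although the gene annotation of that build lists all 9. These coordinates belong to another build than the mm9 intervals and were not compared with them, so whether an interval covers a printed stretch was not determined. Each sequence runs 5′ to 3′ on the gene's strand, with every CpG in capitals. Nkx6-2 lies at chr7:139582748-139583047 (minus strand), Igf2 at chr7:142658755-142659054 (minus strand), Fgf3 at chr7:144838362-144838661 (plus strand), Fgf4 at chr7:144861136-144861435 (plus strand), Ascl2 at chr7:142969215-142969514 (minus strand) and Kcnq1ot1 at chr7:143296498-143296797 (minus strand). Igf2 has 4 entries, of which the one with the most CpGs was chosen after the counts were seen.
Nkx6-2: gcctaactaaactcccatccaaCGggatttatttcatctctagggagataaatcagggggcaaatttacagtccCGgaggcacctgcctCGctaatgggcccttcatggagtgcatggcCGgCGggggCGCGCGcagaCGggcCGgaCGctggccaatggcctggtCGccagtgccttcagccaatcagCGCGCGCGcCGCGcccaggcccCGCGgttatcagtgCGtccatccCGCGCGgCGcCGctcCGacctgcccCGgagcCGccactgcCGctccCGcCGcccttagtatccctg
Igf2: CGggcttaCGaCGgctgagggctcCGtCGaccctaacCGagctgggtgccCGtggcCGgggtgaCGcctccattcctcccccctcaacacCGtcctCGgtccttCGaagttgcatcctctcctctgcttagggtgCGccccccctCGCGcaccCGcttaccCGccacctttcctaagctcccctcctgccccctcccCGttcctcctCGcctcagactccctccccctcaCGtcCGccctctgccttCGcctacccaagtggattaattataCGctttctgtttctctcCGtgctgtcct
Fgf3: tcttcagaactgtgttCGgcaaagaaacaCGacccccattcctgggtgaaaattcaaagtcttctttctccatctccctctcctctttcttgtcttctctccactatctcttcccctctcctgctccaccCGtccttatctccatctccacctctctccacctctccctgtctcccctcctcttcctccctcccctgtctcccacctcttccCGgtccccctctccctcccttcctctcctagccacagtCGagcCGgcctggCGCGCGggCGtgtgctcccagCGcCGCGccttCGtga
Fgf4: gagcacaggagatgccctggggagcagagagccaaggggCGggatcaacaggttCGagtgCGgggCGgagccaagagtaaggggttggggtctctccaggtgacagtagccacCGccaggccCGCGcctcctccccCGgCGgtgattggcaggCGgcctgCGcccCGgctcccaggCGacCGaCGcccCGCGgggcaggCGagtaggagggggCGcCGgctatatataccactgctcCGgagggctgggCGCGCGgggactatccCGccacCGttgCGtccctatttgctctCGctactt
Ascl2: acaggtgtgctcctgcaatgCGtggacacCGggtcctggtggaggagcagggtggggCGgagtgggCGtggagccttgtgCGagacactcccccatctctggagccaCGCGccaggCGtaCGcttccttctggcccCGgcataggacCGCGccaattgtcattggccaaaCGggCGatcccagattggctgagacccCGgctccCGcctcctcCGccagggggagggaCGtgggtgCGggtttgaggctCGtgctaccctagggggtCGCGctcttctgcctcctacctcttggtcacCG
Kcnq1ot1: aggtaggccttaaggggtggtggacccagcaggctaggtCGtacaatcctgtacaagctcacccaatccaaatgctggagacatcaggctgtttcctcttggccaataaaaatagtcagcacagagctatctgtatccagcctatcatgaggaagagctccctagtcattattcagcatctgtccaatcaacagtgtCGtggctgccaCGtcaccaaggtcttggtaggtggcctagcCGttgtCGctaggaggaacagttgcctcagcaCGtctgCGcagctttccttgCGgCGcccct

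The homeobox gene and Fgf4 had the most CpGs of these promoters. Nkx6-2 held 32 CpGs in 300 bases, a number reached by 9.52% of all 32851 mouse entries of this length, and Fgf4 held 28, reached by 14.2%. The median entry held 7 CpGs (interquartile range 3 to 20), and 94.6% held at least 1. The 4 Igf2 entries spread widely, with 2, 14, 24 and 7 CpGs in their order on the strand of transcription. Fgf3 held 14 CpGs, a number reached by 36.3% of entries, although it carried the same calls as Fgf4. Ascl2, with H3K27me3 and no FLAG, held 23 CpGs (reached by 21.5%), within the range of the genes with FLAG. Kcnq1ot1, with no interval, held 9 (reached by 45.8%). The ratio of observed to expected CpGs gave 0.97 for Nkx6-2, 0.90 for the printed Igf2 promoter, 0.77 for Fgf4, 0.75 for Fgf3, 0.68 for Ascl2 and 0.42 for Kcnq1ot1, against a median of 0.38 over all entries. All 6 printed promoters, that of Kcnq1ot1 without calls included, lay above this median, and 2 of the Igf2 entries not printed, at 0.10 and 0.25, lay below it. With 6 genes this is a description and was not tested.

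**Figure D1:**
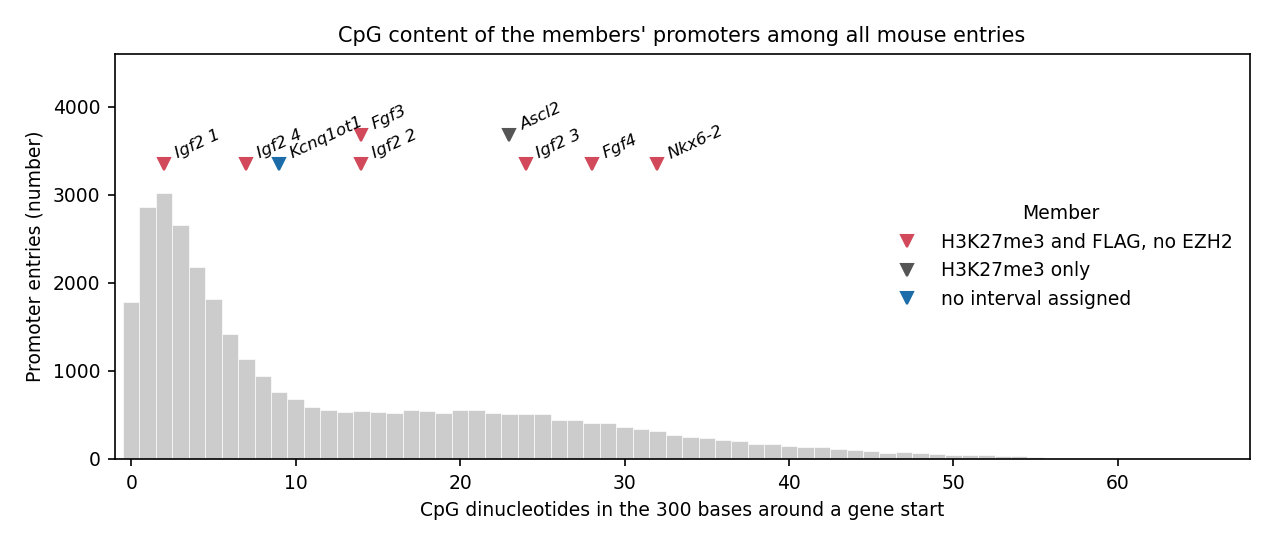
Number of CpG dinucleotides in the 300 bases around a gene start (x axis) against the number of mouse RefSeq promoter entries with that number (grey bars), with triangles for the entries of the 6 genes found, coloured by the calls at the gene and set above the bars at no scale. Nkx6-2 (32) and Fgf4 (28) lie farthest to the right, and the 4 Igf2 entries, numbered 1 to 4, range from 2 to 24.

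A gene was given a signal where an interval overlapped or lay within 20 kb of its position, and the positions used were approximate, in steps of 10 kb. Distances below 10 kb given here, and a position falling inside an interval, are therefore finer than the positions can resolve. Of the 9 genes, 7 lay within 20 kb of an H3K27me3 interval and 4 within 20 kb of a FLAG interval. Of 758 positions set every 10 kb along the segment, 8.31% lay that close to H3K27me3 and 2.51% that close to FLAG. The genes were chosen with the peaks known, so these counts describe them and support nothing further. With a distance of 10 kb, Cdkn1c lost its H3K27me3 assignment. With 50 kb, Fgf15 gained FLAG, from the interval at Fgf4, and the remaining 7 genes kept their calls at all 3 distances.

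**Figure D2:**
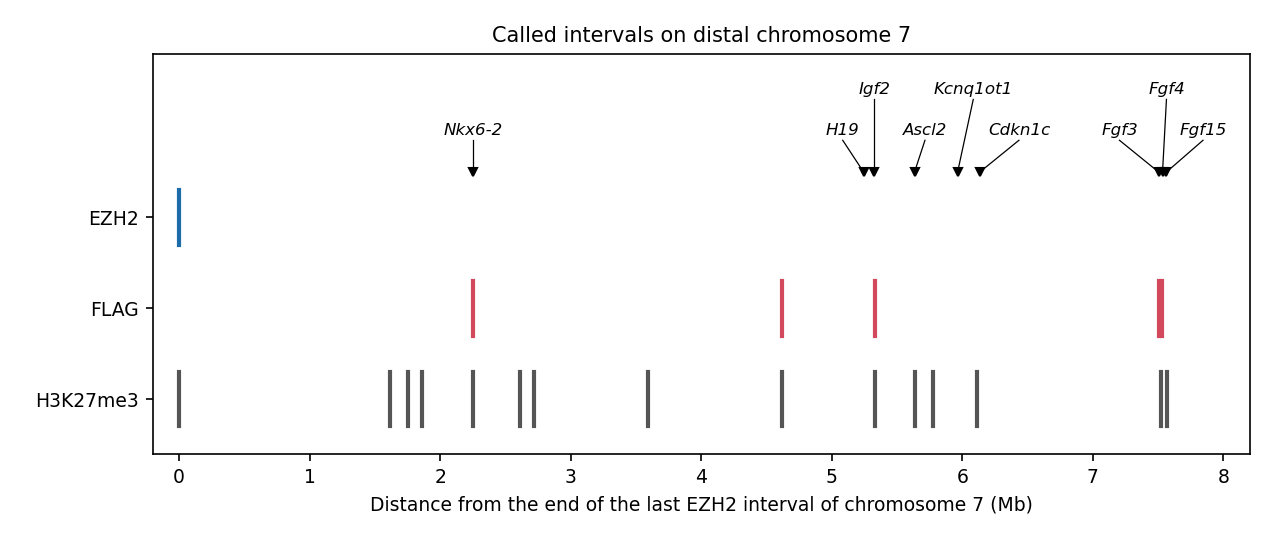
Positions of the called intervals of each list (vertical bars, drawn at their centres and not to width) along the segment, as distance in Mb from the end of the last EZH2 interval, with triangles at the approximate gene positions. EZH2 has its only bar at the left end, while FLAG and H3K27me3 bars lie beyond it, and the last interval, of H3K27me3, ends 7.57 Mb past it.

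The homeobox gene Nkx6-2, a transcription factor of the neural tube and of oligodendrocytes, lay under the third widest H3K27me3 interval of the segment. That interval ran from 146765201 to 146773599 (8399 bp) and contained a FLAG interval from 146767001 to 146771799 (4799 bp), the widest FLAG interval of the segment. H3K27me3 reached 1800 bp beyond FLAG on each side, so FLAG sat at its centre. The gene's position, 146.77 Mb, fell inside both. The nearest EZH2 interval lay 2254 kb away.

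At the imprinted H19 and Igf2 pair, the calls lay on the side of Igf2. Igf2, a fetal growth factor expressed from the paternal chromosome in most tissues, is placed at 149.84 Mb. An H3K27me3 interval from 149842401 to 149851999 (9599 bp) began 2.4 kb from this position, with a FLAG interval from 149844201 to 149847199 (2999 bp) inside it. FLAG was off centre here, since H3K27me3 reached 1800 bp beyond it towards H19 and 4800 bp on the side of Ascl2. H19, a maternally expressed long noncoding RNA placed at 149.76 Mb, lay 82.4 kb from this H3K27me3 interval, which was also the nearest to it, and 84.2 kb from the nearest FLAG interval.

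The neighbouring domain around Kcnq1ot1 had narrower H3K27me3 intervals and no FLAG. Ascl2, a transcription factor of the trophoblast that is expressed from the maternal chromosome, lay 2.4 kb from an H3K27me3 interval at 150152401 to 150156799 (4399 bp). This was the widest interval of the segment without FLAG. Cdkn1c, a cyclin-dependent kinase inhibitor that is also maternally expressed, lay 17.2 kb from an interval at 150630601 to 150632799 (2199 bp). Kcnq1ot1, the paternally expressed antisense RNA that silences neighbours of this domain, lay 151 kb from the nearest H3K27me3 interval, the one given to Cdkn1c. One further H3K27me3 interval, of 1999 bp from 150292401 to 150294399, lay between Ascl2 and Kcnq1ot1 and was given to no gene. The nearest FLAG interval to all 3 genes was the one at Igf2, 303 kb from Ascl2, 633 kb from Kcnq1ot1 and 803 kb from Cdkn1c.

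The Fgf genes carried the longest methylated interval of the segment. Fgf3 and Fgf4, which encode secreted ligands used in inner ear development and in the early embryo respectively, shared 1 H3K27me3 interval from 152021001 to 152050999. Its 29999 bp ranked 49 by width among the 1126 H3K27me3 intervals and made up 36.9% of all H3K27me3 bases of the segment. FLAG was called near each end of it, from 152022601 to 152026999 (4399 bp), 2.6 kb from the position of Fgf3, and from 152045401 to 152049399 (3999 bp), 0.601 kb from that of Fgf4. Each FLAG interval stopped 1600 bp short of the outer edge of H3K27me3, and 18.4 kb without a FLAG call lay between them. H3K27me3 intervals with 2 or more FLAG intervals numbered 20 of 1126, and 2 of these 20 had no EZH2. Fgf15, the mouse gene of an intestinal hormone that restrains bile acid synthesis, had its own H3K27me3 interval at 152080801 to 152083599 (2799 bp), 29.8 kb past the long one. That interval had no FLAG, and it was the last interval of any list on the chromosome.

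**Figure D3:**
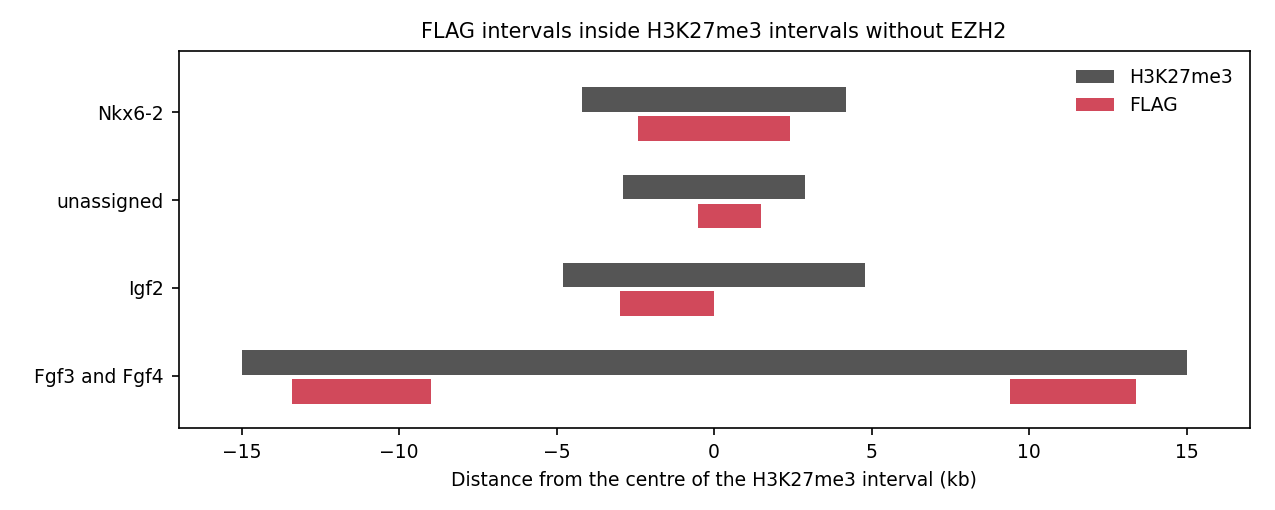
Extent of the 4 H3K27me3 intervals of the segment that contain FLAG (grey bars) and of the FLAG intervals inside them (red bars), to scale in kb from the centre of each H3K27me3 interval. FLAG is central at Nkx6-2, to the left at Igf2, and lies 1600 bp inside each end of the 29999 bp interval over Fgf3 and Fgf4.

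The fourth H3K27me3 interval with FLAG lay far from all 9 genes. It ran from 149133801 to 149139599 (5799 bp), between Nkx6-2 and H19 and 620 kb from the latter, and held a FLAG interval of 1999 bp from 149136201 to 149138199. Genes at this place cannot be named, because annotation of build mm9 was not used here. It was 1 of 9 H3K27me3 intervals of the segment that were given to no gene. Of the other 8, which ranged from 799 to 4199 bp and had no FLAG, 4 lay before Nkx6-2, 3 between Nkx6-2 and H19 and 1 after Ascl2.

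FLAG followed the width of H3K27me3 without exception in the segment. The 4 H3K27me3 intervals with FLAG measured 5799, 8399, 9599 and 29999 bp, and the 11 without it measured from 799 to 4399 bp, so the groups did not overlap. Together the 4 held 66.1% of the H3K27me3 bases. Over the whole list, 36.1% of H3K27me3 intervals overlapped FLAG. In the segment 4 of 15 did (26.7%, exact Clopper-Pearson 95% interval 7.79 to 55.1%). This share depends on the choice of the segment by these calls and was not tested against the whole list. Elsewhere the division by width was not clean. Outside the segment, 302 of 450 H3K27me3 intervals of at least 5799 bp had FLAG (67.1%, 62.6 to 71.4%), as did 101 of 661 narrower ones (15.3%, 12.6 to 18.3%). The width of 5799 bp is that of the narrowest H3K27me3 interval with FLAG in the segment, so no share by width is given for the segment. Intervals cover counting error only and treat neighbouring peaks as independent.

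**Figure D4:**
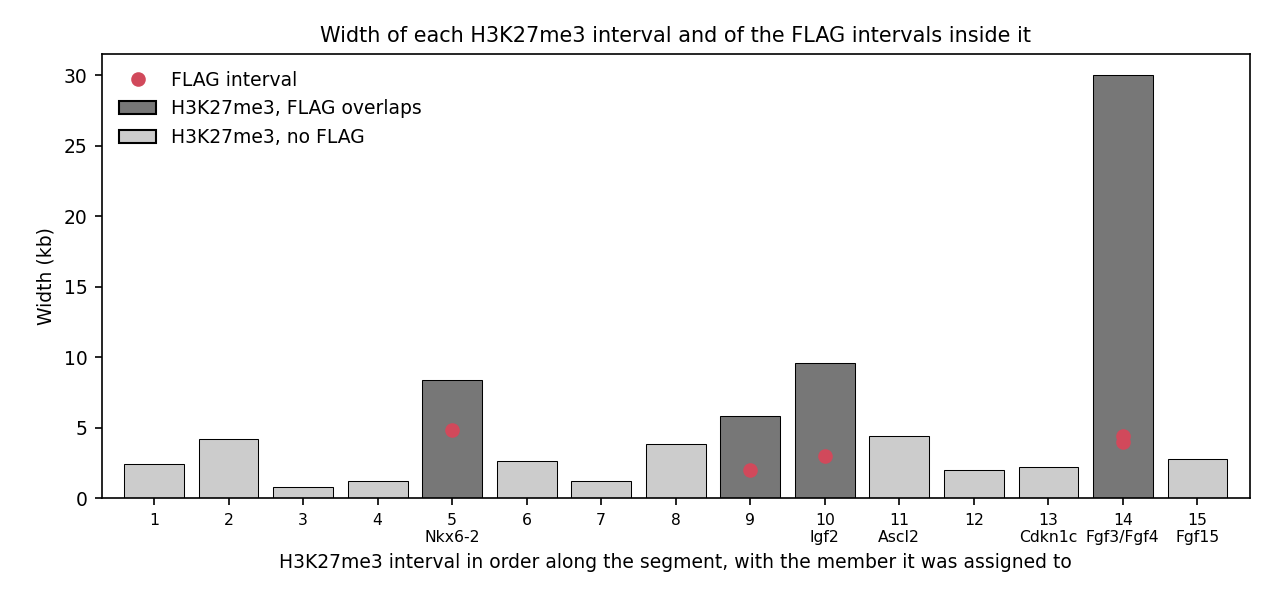
Width in kb of the 15 H3K27me3 intervals of the segment (bars, in order along the chromosome, dark where FLAG overlaps) and of the FLAG intervals inside them (red points), with the assigned gene under its interval. The 4 dark bars, from 5799 to 29999 bp, are the 4 tallest, and the FLAG points lie between 1999 and 4799 bp.

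The wide H3K27me3 intervals outside the segment carried FLAG mainly where EZH2 was called. Of 346 such intervals of at least 5799 bp with EZH2, 301 had FLAG (87.0%, 83.0 to 90.4%). Of 104 without EZH2, 1 had FLAG (0.962%, 0.0243 to 5.24%). In the segment all 4 had FLAG and none had EZH2. Since the width was set by these 4 intervals and the segment was chosen where FLAG and EZH2 were seen to part, this count is given as a description, with no test.

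The FLAG intervals of the segment fell mostly in the usual range of width. Their widths, 1999, 2999, 3999, 4399 and 4799 bp, had a median of 3999 bp, equal to that of all 438 FLAG intervals (interquartile range 2399 to 5999 bp), and 4 of the 5 lay within that range. In the 3 cases where a single FLAG and a single H3K27me3 interval met, H3K27me3 was 1.75 times as wide at Nkx6-2, 2.90 times at the interval given to no gene and 3.20 times at Igf2. Across 384 such pairs outside the segment the median ratio was 1.83 (interquartile range 1.45 to 2.79), so the last 2 lay above the upper quartile. H3K27me3 reached 1600 bp past FLAG at the median of 768 edges outside (1000 to 2400 bp). Of the 6 edges of the 3 pairs, which lay at 1800, 1800, 2400, 1400, 1800 and 4800 bp, all but the edge beyond Igf2 fell in this range.

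The lack of EZH2 calls is what set the segment's choice, and its extent is given here without a test. The only EZH2 interval past the limit ran from 144512801 to 144516199 (3399 bp) and enclosed an H3K27me3 interval from 144513401 to 144515799 (2399 bp), reaching 600 bp and 400 bp beyond it. These began 12.8 and 13.4 kb inside the limit. The last intervals before the limit, EZH2 from 139786801 to 139793399, H3K27me3 from 139786801 to 139792799 and FLAG from 139788001 to 139791399, overlapped one another and began 4713, 4713 and 4712 kb before it. After the interval at the start of the segment, the EZH2 list had no further interval on the chromosome, although 14 H3K27me3 and 5 FLAG intervals followed. The 14 spanned 5.95 Mb, and the last of them ended 7.57 Mb past that EZH2 interval. Whether the EZH2 list is complete past this point was not tested, since positions alone cannot show it, and every count without EZH2 in the segment means without a call in that list. Over the whole series, 71.7% of H3K27me3 intervals had EZH2, and 96.6% of FLAG intervals did. In the segment, EZH2 was called at 1 of 15 H3K27me3 intervals and at 0 of 5 FLAG intervals.

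The rest of chromosome 7 is set beside its end here as a description. Because the segment was chosen where EZH2 calls stopped, its low share with EZH2 was fixed by that choice and was not tested. Before the segment, all 19 FLAG intervals had EZH2, as did all 16 H3K27me3 intervals with FLAG. The narrowest EZH2 interval of the list spanned 2199 bp. Of the 30 H3K27me3 intervals at least that wide on the rest of the chromosome, all 30 had EZH2 (exact lower bound 88.4%), and the 14 without EZH2 measured only 399 to 1399 bp. In the segment 11 H3K27me3 intervals were at least that wide, and EZH2 was called at 1 of them. Outside the segment in all chromosomes the share was 83.6% of 829. H3K27me3 intervals numbered 1.98 per Mb over the 7.58 Mb of the segment, against 0.372 per Mb before it. FLAG intervals numbered 0.659 against 0.136 per Mb. This difference in density follows in part from the choice and was not tested. The segment was chosen where these calls went on, and its span ends at the last of them. Nearly all of a 4.72 Mb stretch without any interval, from 139793400 to 144512800, counts as before it. Median widths of H3K27me3 intervals were 2799 bp in the segment and 3099 bp on the rest of the chromosome, against 4599 bp in the whole list.

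No other chromosome ended in this way in the 3 lists. The segment was chosen for this ending, so the comparison is a description and was not tested. Of the 19 other chromosomes with an EZH2 interval, 4 had any H3K27me3 interval past the last EZH2 interval, with at most 2, on chromosome 16, and none had FLAG there. On chromosomes 10, 18, 16 and X the last H3K27me3 interval ended 2.8, 3.05, 5.41 and 8.45 Mb past the last EZH2 interval. Only chromosome X thus exceeded the 7.57 Mb of chromosome 7, and on the remaining chromosomes the distance was at most 0.0006 Mb. Of 921 other stretches between EZH2 intervals or at chromosome ends, 87 were at least 7.57 Mb long by this count, and these held at most 5 H3K27me3 intervals each and 4 FLAG intervals in all. A shorter stretch of 7 Mb on chromosome 5 held 15 H3K27me3 intervals and no FLAG. It was the only 1 of the 921 with at least the 14 H3K27me3 intervals found at the end of chromosome 7. FLAG was found in 6 of the 921, with at most 3 in one stretch.

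**Figure D5:**
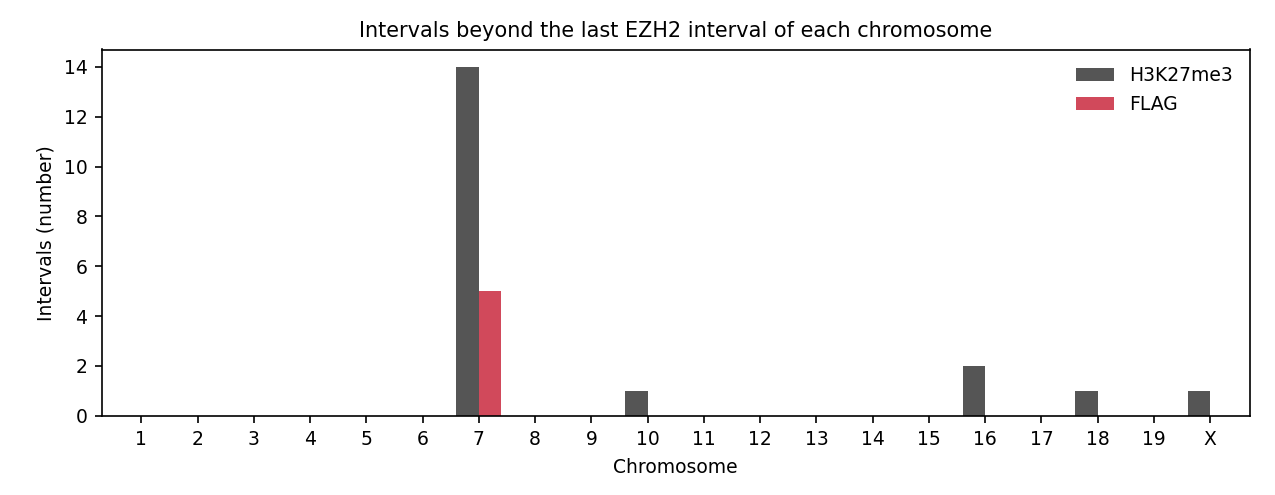
Number of H3K27me3 intervals (grey bars) and FLAG intervals (red bars) that start past the last EZH2 interval of each of the 20 chromosomes with EZH2 intervals. Chromosome 7 has 14 and 5, and the other chromosomes have at most 2 and 0.

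Calls of H3K27me3 with FLAG and no EZH2 were rare outside the segment. They made up 0.533% of the H3K27me3 list, or 6 intervals, of which the segment held 4. The other two were chromosome 5 from 16973401 to 16975799 (2399 bp), with 1 FLAG interval, and chromosome 8 from 126058801 to 126148399 (89599 bp), with 3 FLAG intervals. Read from the FLAG list, 15 intervals had no EZH2, and H3K27me3 was present at all 5 in the segment and at 4 of the 10 elsewhere. FLAG intervals with H3K27me3 and no EZH2 made up 2.05% of the FLAG list.

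Long runs of H3K27me3 without EZH2 also occurred on chromosome 5, and these had no FLAG. The run of the segment, with 14 consecutive H3K27me3 intervals, was second by number among 178 such runs. The longest had 15 intervals on chromosome 5 from 126086401 to 130863799, and the next 2 had 10 intervals from 145311401 to 147401399 and 7 from 116586201 to 117421599, also on chromosome 5. None of these 32 intervals had FLAG, whereas 4 of 14 did on chromosome 7. The intervals on chromosome 5 were wider, with medians of 8199, 12799 and 14599 bp, against 3299 bp on chromosome 7. FLAG was found in 3 of the 178 runs. These runs were ranked by number of intervals only, and the difference in FLAG was not tested.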

How the data were processed

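The 3 libraries with deposited peak lists were used, from EED-floxed mouse embryonic fibroblasts with wild-type EZHIP, grouped by their titles. Per the labels' protocols, fixed chromatin was digested to mono-nucleosomes before immunoprecipitation. Build mm9 and the tools Bowtie 1.0.0 and deepTools are named per the submitters' processing notes. For the peak caller, its thresholds and any control, nothing is given in the sources used here. What the authors deposited are positions only, with starts in steps of 200 bp, so depth is unknown, edges are no finer than that step, and no stricter threshold could be applied. Printed starts are counted from 1. Intervals sharing at least 1 bp overlapped. Shares have exact Clopper-Pearson 95% intervals (Python 3.11.15, scipy 1.17.1), and no hypothesis test was run. Gene positions were approximate values in mm9 supplied with the definition of the segment. The named items were all 9 genes, intervals assigned to them or with FLAG, the widest and narrowest, those at the limit, the 3 other runs with most intervals, and other H3K27me3 intervals with FLAG and no EZH2. The segment, genes and lists were chosen with earlier results of these data known. The overlap counts were tested on simulated data. Alternatives were other limits of the segment, other overlaps, other distances to genes, joined intervals, and lists without intervals up to their lower quartile of width.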

Additional observations from a re-analysis of the deposited data

How the results depend on the processing

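Of 36 recomputed values of 10 results, 33 stayed within 1.5 times the reported count or, for the median width, within its exact 95% interval of 1999 to 5799 bp. The other 3 concern the single EZH2 interval. With the segment started at the end of that interval the number of EZH2 intervals was 0. With the narrowest intervals of each list left out, up to its lower quartile (3399 bp for EZH2), it was also 0, and the number of H3K27me3 intervals with EZH2 fell to 0, because this removes the interval itself. The same step left 11 H3K27me3 and 4 FLAG intervals, and 4 genes with both. It lowered the H3K27me3 intervals of the segment with FLAG from 4 to 3, which counts as within 1.5 times. So does the change from 3 to 2 genes with H3K27me3 only, at distances of 10 and 50 kb. For counts this small the limit of 1.5 times is therefore a loose one. H3K27me3 intervals with FLAG and no EZH2 over the whole series numbered from 4 to 7 across alternatives. Starting at 140 Mb changed no count of intervals. No paired analysis was possible because each target had 1 library. Without read depth, scores or replicates, the strength of any call and its reproducibility were not measured.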

Other observations

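The order of genes along the segment, read from RefSeq of build GRCm38.p6 by name only, was the same as that of the approximate positions, and all 9 genes were found there. Between Nkx6-2 and H19 the annotation lists 117 protein-coding genes, and 4 H3K27me3 intervals given to no gene lie between the same 2 genes in the mm9 lists. Between Igf2 and Ascl2 lie 2 protein-coding genes, Ins2, which encodes insulin, and Th, the tyrosine hydroxylase of catecholamine synthesis, and no H3K27me3 interval other than those at Igf2 and Ascl2. From Ascl2 to Kcnq1ot1 the order lists 5 (Tspan32, Cd81, Tssc4, Trpm5 and Kcnq1), but it does not show where each gene ends or whether genes overlap. The mm9 lists hold 1 H3K27me3 interval there besides the one given to Ascl2, and no FLAG. Between Cdkn1c and Fgf3 lie 18, beginning with Slc22a18, Phlda2 and Nap1l4, and no H3K27me3 interval in the mm9 lists falls between their positions, since the one given to Cdkn1c lies on the side of Kcnq1ot1. No protein-coding gene lies between Fgf3 and Fgf4, which shared the longest H3K27me3 interval, or between Fgf4 and Fgf15.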
